A study of Mus musculus with 42 samples.

Results

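The genes described here encode the proteins that carry glucose into a cell, break it down to pyruvate, exchange pyruvate with lactate, and admit pyruvate to the mitochondria. They were chosen by name, 34 of the 48321 gene names in each of 2 count tables, and fall into 16 steps. The set holds glucose transporters (Slc2a1, Slc2a3), hexokinases (Hk1, Hk2), phosphofructokinases (Pfkl, Pfkm, Pfkp), the enzymes that set their activator (Pfkfb1 to Pfkfb4), aldolases (Aldoa, Aldoc), enolases (Eno1, Eno2, Eno3), and the single enzymes Gpi1, Tpi1, Pgk1, Pgam1 and Pkm. Beyond pyruvate it holds lactate dehydrogenases (Ldha, Ldhb), monocarboxylate transporters (Slc16a1, Slc16a3), the kinases that inhibit pyruvate dehydrogenase (Pdk1 to Pdk4), pyruvate dehydrogenase itself (Pdha1, Pdhb, Dlat) and the mitochondrial pyruvate carrier (Mpc1, Mpc2). Of the 34 genes 33 passed the low-count filter and were tested in both tables. Pfkfb2 was not tested, with 127 counts over the 21 libraries of the first table and 98 over the 21 of the second.

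The study followed mouse embryonic fibroblasts (MEF) on their way to induced pluripotent stem cells (iPSC) by stranded poly(A) RNA-seq of 42 libraries, 3 in each of 14 groups, all from male cells. The naivex2 lines (first table) come from a cross of B6; 129S4-Tg(Tet1-mCherry)B37Koh with B6;CBA-Tg(Pou5f1-EGFP)2Mnn/J and carry each reporter transgene over wild type, Tg(mCherry)/wt and Tg(GFP)/wt. Their groups are day 10 mCherry+/GFP- cells, day 12 and day 14 mCherry+ cells with or without GFP, iPSC, and the MEF they came from at day 0. The totalx2 lines (second table) join B6- Tet1tm1.1Koh with B6;129S4-Pou5f1tm2Jae/J (both are targeted alleles of the genes they report) and gave mCherry+/GFP- cells at day 8 and mCherry+ cells with or without GFP at days 10 and 12. The second table also holds clonal iPSC of B6- Tet1tm1Kohx mice crossed with B6;CBA-Tg(Pou5f1-EGFP)2Mnn/J, either Tet1 knockout (mut/mut;GFP/wt) or wild type (wt/wt;GFP/wt). Every sorted fraction was mCherry+ and is named below by its GFP alone. The sorted cells of a system are from 3 independent lines, and iPSC were at passage 6 to 7, grown on feeder cells and then depleted of them. The title of 1 totalx2 day 12 GFP- library (replicate 2) lacks the mCherry mark, so that its gate rests on its source name. The 2 tables are separate sequencing batches, and no level is compared between them.

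Glycolysis yields a little ATP quickly and feeds its intermediates into the synthesis of nucleotides, lipids and amino acids. Pluripotent cells are known for a high rate of glycolysis with release of lactate even where oxygen is plentiful, and reprogramming of fibroblasts is known to include a change of energy metabolism. Several steps have more than 1 enzyme form, which differ in affinity, in regulation and in the cells that use them, so that a step can keep its total while its forms are exchanged.

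Libraries held 6540256 to 20783265 counts in 18838 to 21666 genes. The 34 genes took 0.5485 to 1.2641% of a library's counts. Mitochondrially encoded genes took 1.7526 to 12.1785%, over 8% in 2 libraries, replicate 1 of naivex2 day 10 cells (8.9931%) and replicate 1 of wild-type iPSC (12.1785%). Levels below are CPM, the usual library-size scaled count with TMM scaling, and are given per library or as mean ± SD over 3 libraries. Pluripotency markers (10 genes) summed to 4241 to 4609.8 CPM in naivex2 iPSC and 1.83 to 3.11 CPM in MEF, where Dppa4 had no count, and to 4839 to 4939 CPM in knockout and 4108 to 5041 CPM in wild-type iPSC. All 10 fibroblast markers had counts in every group. Tet1 itself was at 54.3, 58.6 and 57.3 CPM in the 3 knockout clones, against 1303, 823 and 874 CPM in wild type. In such bulk samples fewer cells of a type and less RNA per cell cannot be told apart.

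Most of the RNA of the pathway came from a few forms in every group. Per kilobase of exon, Aldoa held at least 94.3% of the aldolase RNA and Eno1 at least 93.0% of the enolase RNA in each of the 14 groups. Over the 7 groups of the naivex2 lines 9 genes stayed within 2-fold between their lowest and highest group mean, namely Hk1, Pfkfb1, Aldoa, Pgk1, Pgam1, Eno1, Pkm, Pdha1 and Dlat. The widest spans there were those of Slc2a3 (42.3-fold), Aldoc (34.8-fold) and Pdk1 (15.8-fold). The second table had 14 genes within 2-fold, and the widest spans were those of Eno2 (12.1-fold), Pdk4 (11.3-fold) and Slc16a3 (10.5-fold). Under 10 CPM in every group were Pfkfb1, Pfkfb2 and Pdk2 in the first table, and Pfkfb1, Pfkfb2 and Pfkfb4 in the second. Processed copies take part of the reads of some enzymes. Reads assigned to the copies of Eno1 (Eno1b, Gm4735 and Gm5855) came to 27809 against 256300 for Eno1 itself in the first table, and those of Gm6560 to 32481 against 555443 for Pkm. Values of these genes are therefore less certain than those of Slc2a3, Hk2, Pfkp or Pdk1, for which no alike gene was found.

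**Figure D1:**
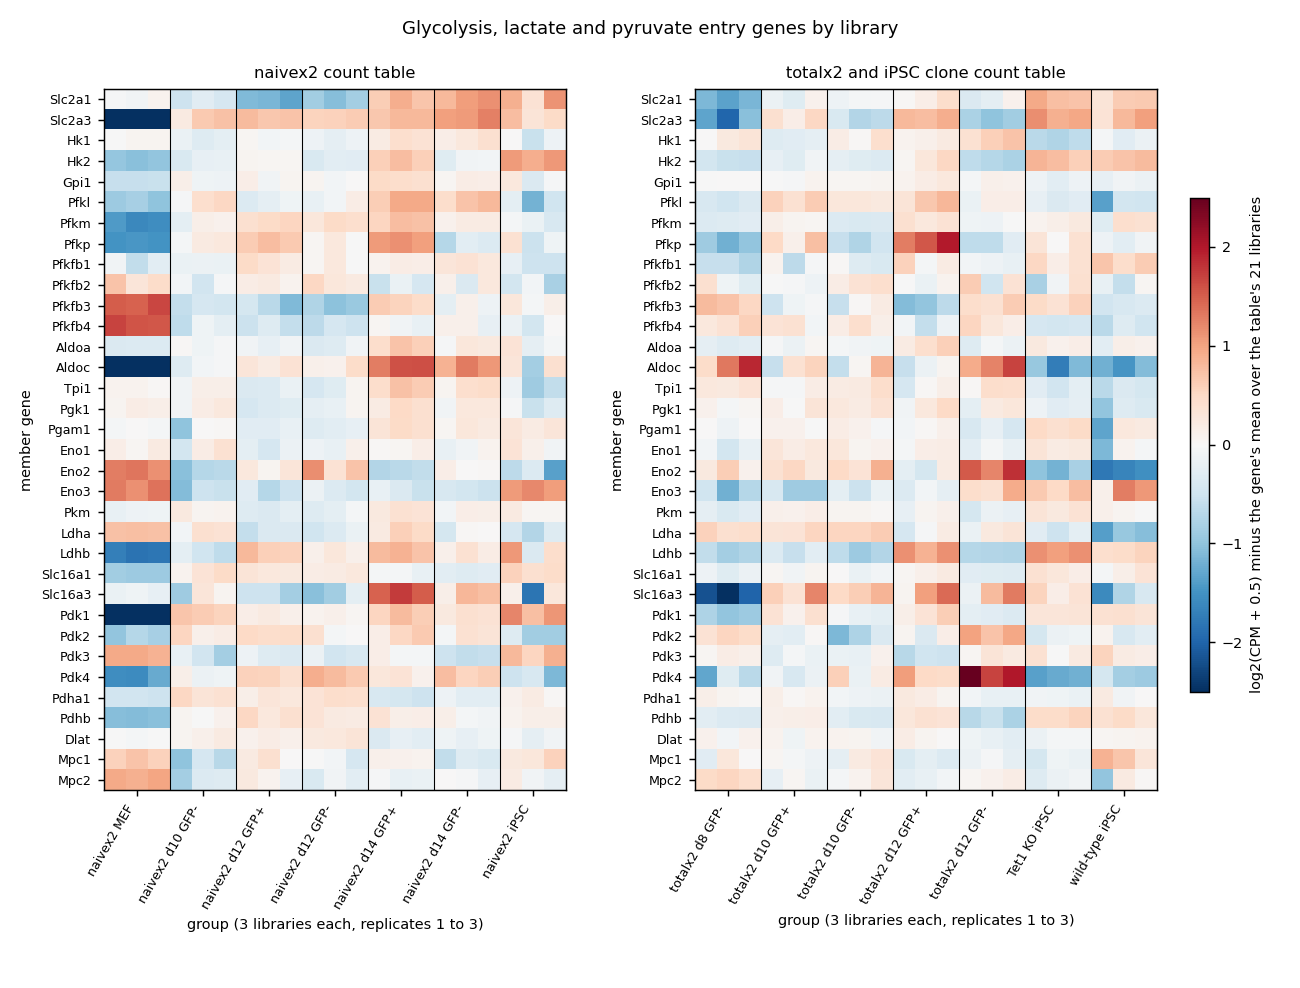
Level of each of the 34 members (rows, ordered by step) in each library (columns, 3 per group, replicates 1 to 3), as log2(CPM + 0.5) minus the gene's mean over the 21 libraries of its table (colour scale). In the MEF columns Slc2a3, Aldoc and Pdk1 are at their lowest and Eno2, Pfkfb3 and Pfkfb4 at their highest means of the first table.

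Day 10 cells of the naivex2 lines differed from their MEF in most genes of the table, and the members were called about as often as genes in general, with opposite signs within several steps. Called at an adjusted p under 0.05 (edgeR quasi-likelihood F test, Benjamini-Hochberg over all genes tested) were 17 higher and 10 lower of the 33 members, in a comparison that called 76.4% of all 16132 genes (38.8% higher, 37.6% lower). The median log2 fold change was 0.16 over the members and 0.06 over all genes. Scaling by library totals alone moved the median of all genes to 0.34 and the member calls to 18 higher and 7 lower, so that small changes in this comparison depend on the scaling. Without replicate 1 of day 10, the library with the high mitochondrial share, 17 were higher and 9 lower.

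Of the glucose transporters, 1 was far higher and the other slightly lower in day 10 cells. Slc2a3 encodes GLUT3, a high-affinity glucose transporter known from neurons and early embryos (chr6:122727809-122801640, minus strand, mm10). It was at 1034, 1392 and 1472 CPM in day 10 cells, against 46.1, 42.5 and 48.7 CPM in MEF. Every day 10 library lay above every MEF library, by 28.4-fold between the means (log2 fold change 4.83 ± 0.14, adjusted p = 1.8e-17). Slc2a1, which encodes the widely expressed transporter GLUT1, was at 158 ± 13.8 CPM in day 10 cells and 207 ± 12.3 CPM in MEF (log2 fold change -0.39 ± 0.14, adjusted p = 0.015). Of the hexokinases, which trap glucose as glucose 6-phosphate, Hk2 rose by 0.74 ± 0.08 on the log2 scale and Hk1 fell by 0.28 ± 0.10. The small differences of Slc2a1 and Hk1 were not called with library totals alone. Slc2a1 lost its call without replicate 1 or 3 of day 10 or replicate 3 of MEF, and Hk1 without replicate 2 or 3 of MEF or replicate 2 or 3 of day 10 (adjusted p up to 0.5 and 1 over their alternatives).

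In upper glycolysis 6 of 10 tested genes rose and 2 fell. All 3 phosphofructokinase genes, whose product commits sugar to glycolysis, were higher. The platelet form Pfkp was at 202, 245 and 251 CPM in day 10 cells, against 73.6, 75.6 and 73.7 CPM in MEF (log2 fold change 1.65 ± 0.16, adjusted p = 1.6e-08). The muscle form Pfkm was at 89.5 ± 13.1 CPM in day 10 cells and 30.4 ± 2.01 CPM in MEF (log2 fold change 1.56 ± 0.11, adjusted p = 2.2e-11), and the liver form Pfkl rose by 1.24 ± 0.19. Pfkfb3 and Pfkfb4, which make the activator of phosphofructokinase, fell to 7.92 ± 0.526 and 4.34 ± 0.879 CPM in day 10 cells, against 34.3 ± 2.64 and 17.8 ± 0.944 CPM in MEF (log2 fold changes -2.11 ± 0.15 and -2.02 ± 0.17, adjusted p = 5.1e-11 and 7.4e-10). The brain aldolase Aldoc rose by 3.37 ± 0.33 but stayed at 7.92 ± 0.891 CPM in day 10 cells, against 0.737 ± 0.247 CPM in MEF, beside Aldoa at 951 ± 41.5 CPM in day 10 cells. In lower glycolysis the neuronal enolase Eno2 and the muscle enolase Eno3 fell (-2.22 ± 0.24 and -2.03 ± 0.15), Pkm rose by 0.28 ± 0.08, and Pgk1, Pgam1 and Eno1 were not called.

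At the lactate step Ldhb, the heart form of lactate dehydrogenase, rose to 99.9 ± 14.1 CPM in day 10 cells, against 39.1 ± 1.87 CPM in MEF (log2 fold change 1.35 ± 0.24, adjusted p = 5.3e-05). Ldha, the muscle form, was at 569.8 ± 97.6 CPM in day 10 cells and 800.2 ± 7.93 CPM in MEF (log2 fold change -0.49 ± 0.14), a call lost without replicate 1 of day 10 and with library totals alone (adjusted p up to 0.23). Of the transporters that move lactate across the cell membrane, Slc16a1 (MCT1) rose by 1.21 ± 0.08. Slc16a3 (MCT4, the form of cells that export lactate) was not called, at 39.5 ± 15.3 CPM in day 10 cells and 37.6 ± 1.15 CPM in MEF.

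Of the 4 kinases that switch pyruvate dehydrogenase off, Pdk1, Pdk2 and Pdk4 were higher and Pdk3 lower, with Pdk2 under 10 CPM in both groups. Pdk1 was at 181, 175 and 165 CPM in day 10 cells, against 16.4, 14.2 and 13.4 CPM in MEF, with no overlap (log2 fold change 3.56 ± 0.11, adjusted p = 9e-17). Pdk4 rose by 1.49 ± 0.16, while Pdk3 fell to 17.01 ± 3.93 CPM in day 10 cells, against 45.8 ± 1.33 CPM in MEF (log2 fold change -1.43 ± 0.13). The catalytic subunits Pdha1 and Pdhb of the enzyme they inhibit rose by 0.89 ± 0.07 and 1.13 ± 0.08. Both subunits of the pyruvate carrier fell, Mpc1 to 5.72 ± 1.27 CPM in day 10 cells, against 14.9 ± 0.878 CPM in MEF, and Mpc2 to 8.46 ± 1.72 CPM in day 10 cells, against 23.6 ± 0.8302 CPM in MEF (log2 fold changes -1.37 ± 0.17 and -1.48 ± 0.15). Of the 10 fibroblast markers 9 fell in this comparison and none rose, with summed levels of 724 to 1214 CPM in day 10 libraries and 16859.8 to 18058 CPM in MEF. Of the 7 muscle markers tested all fell, with sums of 14.7 to 18.5 CPM in day 10 libraries and 327 to 380.0 CPM in MEF. Of the 8 leukocyte markers 2 rose and 6 fell, with sums of 95.9 to 110.4 CPM in day 10 libraries and 59.8 to 89.2 CPM in MEF. Their part in the result was not tested.

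**Figure D2:**
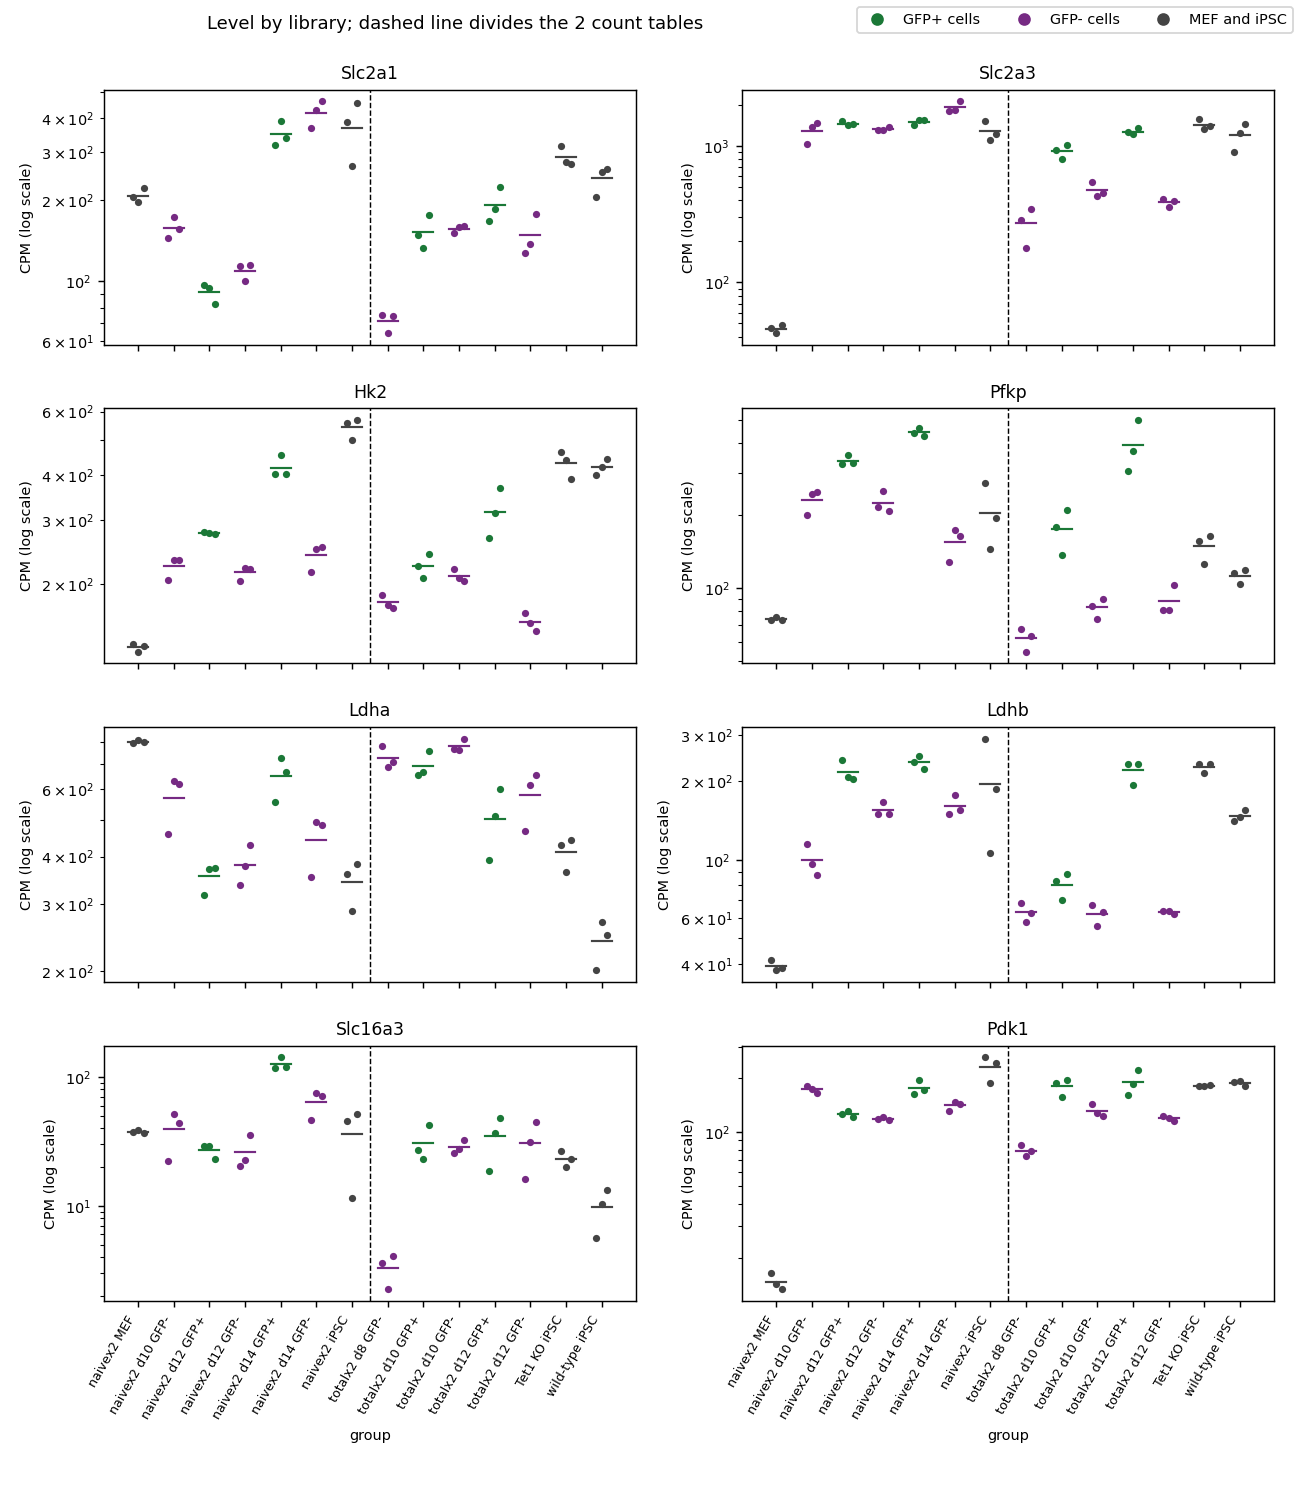
CPM (log axis) of selected members in each library (points) with the group mean (line), groups along the axis and tables apart. Slc2a3 and Pdk1 are higher in all naivex2 groups of sorted cells and iPSC than in MEF, and Slc2a1 and Slc16a3 are higher at day 14 than at day 12.

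From day 10 to day 12 in naivex2 GFP- cells the members were called about as often as genes in general. Day 12 GFP- cells had 4 members higher and 4 lower than day 10 cells (20.2% of all genes tested were called), and 3 higher and 5 lower without replicate 1 of day 10. Eno2, Pdk4 and Pfkm were higher (1.72 ± 0.24, 0.83 ± 0.15 and 0.38 ± 0.10), as was Mpc1 (0.56 ± 0.17), whose call was lost without replicate 1 or 3 of day 10 or replicate 1 or 2 of day 12 GFP- (adjusted p up to 0.13). Ldha, Pdk1, Slc2a1 and Pkm were lower, by log2 fold changes between -0.58 ± 0.14 for Ldha and -0.34 ± 0.08 for Pkm. The calls of Ldha and Pkm were lost without replicate 1 of day 12 GFP- (adjusted p = 0.056 and 0.063), a library whose removal left 5 calls in all. The call of Slc2a1 was lost without replicate 2 of either group (adjusted p = 0.069 without day 12 and 0.057 without day 10).

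In cells with GFP, many glycolytic genes were higher at day 14 than at day 12. Day 14 GFP+ cells had 15 members higher and 4 lower than day 12 GFP+ cells, where 30.5% of all genes were called (14.5% higher, 16% lower). The median log2 fold change was 0.36 over the members and 0.00 over all genes. Higher were 3 of 4 genes of uptake and trapping, 6 of 10 of upper glycolysis, 3 of 6 of lower glycolysis and 2 of 4 of lactate. The 5 genes that bring pyruvate into and through pyruvate dehydrogenase had 2 lower and none higher.

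The largest rises were at both ends of the pathway. Slc16a3, the lactate exporter, was at 118, 142 and 121 CPM in day 14 GFP+ cells, against 29.1, 29.3 and 22.96 CPM in day 12 GFP+ cells (log2 fold change 2.22 ± 0.42, adjusted p = 0.00087). Slc2a1 was at 319.7, 392 and 339 CPM in day 14 GFP+ cells, against 96.9, 94.3 and 82.7 CPM in day 12 GFP+ cells (log2 fold change 1.94 ± 0.14, adjusted p = 1.8e-08). For both genes all 3 day 14 libraries lay above all 3 of day 12. Slc2a3, the other glucose transporter, was not called, at 1507 ± 78.1 CPM in day 14 GFP+ cells and 1463 ± 57.8 CPM in day 12 GFP+ cells. Pfkfb3 rose by 1.31 ± 0.16, Aldoc by 1.25 ± 0.23 and Pfkl by 1.07 ± 0.19. Tpi1, which interconverts the triose phosphates, rose by 0.89 ± 0.16, and the other single enzymes Gpi1, Pgk1, Pgam1 and Pkm by 0.38 ± 0.11, 0.73 ± 0.12, 0.65 ± 0.16 and 0.64 ± 0.08. Gpi1 was not called without replicate 2 of day 12 GFP+ (adjusted p = 0.07). Ldha was at 558, 725 and 665 CPM in day 14 GFP+ cells, against 318, 372 and 374 CPM in day 12 GFP+ cells (log2 fold change 0.87 ± 0.14, adjusted p = 0.00013).

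Pdha1 and Dlat of pyruvate dehydrogenase moved the other way, while Pdhb was not called. The catalytic subunit gene Pdha1 was at 286, 279 and 266 CPM in day 14 GFP+ cells, against 417, 466 and 456 CPM in day 12 GFP+ cells (log2 fold change -0.69 ± 0.07, adjusted p = 4.6e-07), and the groups did not overlap. Dlat, the acetyltransferase of the complex, fell by 0.41 ± 0.06 on the log2 scale, Slc16a1 by 0.37 ± 0.08 and Eno2, under 10 CPM in both groups, by 0.98 ± 0.24. The inhibitory kinase gene Pdk1 rose by 0.48 ± 0.10, and Pdk2, Pdk3 and Pdk4 were not called. Of the 16 tricarboxylic acid cycle genes, which take up what pyruvate dehydrogenase makes, 10 were lower and none higher, among them Dlst (-0.43 ± 0.06), Idh3b (-0.38 ± 0.06) and Suclg2 (-0.42 ± 0.07). Of 16 genes of the hypoxia response outside glycolysis 11 were higher and none lower (median 0.87), led by Ankrd37 (2.53 ± 0.25), the histone demethylase Kdm3a (0.87 ± 0.09), the collagen hydroxylase P4ha1 (0.85 ± 0.10) and Ndrg1 (1.59 ± 0.18). Of the fibroblast markers 7 of 10 were higher and none lower, with sums of 1491 to 2491 CPM in day 14 GFP+ libraries and 478 to 968 CPM in day 12 GFP+ libraries, and trophectoderm markers higher in 5 of 7, with sums of 23.03 to 24.8 CPM in day 14 and 8.94 to 13.3 CPM in day 12 GFP+ libraries. Their part in the result was not tested.

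Promoters of 3 genes that rose between day 12 and day 14 are shown because the core of the hypoxia response element, ACGTG, occurs in each (RefSeq sequence, build GRCm38.p6, 250 bases before to 50 after the annotated start, 5' to 3'). Capitals mark ACGTG on either strand, written as CACGT on the other one.
Slc2a1 (chr4:119108495-119108794, plus strand): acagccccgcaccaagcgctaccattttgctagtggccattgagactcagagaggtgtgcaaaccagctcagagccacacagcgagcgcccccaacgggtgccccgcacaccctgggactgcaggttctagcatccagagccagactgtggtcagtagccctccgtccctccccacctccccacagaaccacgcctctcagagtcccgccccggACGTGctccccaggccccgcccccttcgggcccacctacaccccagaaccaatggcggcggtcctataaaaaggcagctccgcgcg
Slc16a3 (chr11:120948817-120949116, plus strand): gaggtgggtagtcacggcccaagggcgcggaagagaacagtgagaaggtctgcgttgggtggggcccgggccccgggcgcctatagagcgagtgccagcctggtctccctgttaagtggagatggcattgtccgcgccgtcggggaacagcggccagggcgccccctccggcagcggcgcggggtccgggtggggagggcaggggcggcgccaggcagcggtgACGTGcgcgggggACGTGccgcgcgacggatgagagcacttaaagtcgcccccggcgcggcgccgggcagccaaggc
Ldha (chr7:46845554-46845853, plus strand): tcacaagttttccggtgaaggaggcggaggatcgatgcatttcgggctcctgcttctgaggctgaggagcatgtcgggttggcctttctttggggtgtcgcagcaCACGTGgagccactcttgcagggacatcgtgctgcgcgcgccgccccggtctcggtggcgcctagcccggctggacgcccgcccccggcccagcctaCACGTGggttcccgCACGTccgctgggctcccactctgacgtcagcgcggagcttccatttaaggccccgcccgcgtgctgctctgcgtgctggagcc
These windows hold 1 match in Slc2a1, 2 in Slc16a3 and 5 in Ldha, counting both strands. The Ldha window holds 2 CACGTG, each of which is counted as 2 matches because it reads the same on both strands. Sequences were found for 33 of the 34 genes, in 53 windows of 300 bases, and Slc2a3 had none. ACGTG was in 21 of these 53 windows (39.6%), against 6447 of all 32851 promoter windows (19.6%). By gene, counted where any of its windows held a match, it was in 17 of 33 (51.5%), against 5886 of 27025 (21.8%). Members had more windows per gene (53 for 33 genes) than genes in general (32851 for 27025), which raises their count by gene. Windows of a gene can overlap, and the same Aldoa site is counted in 2 windows. Ldha has another window, which holds no match. The longer CACGTG, the E-box read by MYC and MAX, always holds an ACGTG and was in 6 of 53 windows (11.3%), against 7.15% of all. Of the 15 members that were higher in day 14 than in day 12 GFP+ cells 11 had an ACGTG, and Gpi1, Pfkl, Tpi1 and Pdk1 had none. It was in 1 of the 4 lower members (Slc16a1) and in 4 of the 13 members that were not called and had a window. Over the same days in GFP- cells, ACGTG was in 8 of 11 higher, 2 of 6 lower and 6 of 15 not called members with a window. A match is a description of the letters in the window and does not show that a factor binds there. The counts by call are small, and whether hypoxia or any factor had a part in these changes was not tested.

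Cells that stayed GFP- changed over the same days in 18 members. Day 14 GFP- cells had 12 members higher and 6 lower than day 12 GFP- cells (36.8% of all genes were called), with Slc2a1 at 367, 428 and 462 CPM in day 14 GFP- cells, against 114, 99.9 and 115 CPM in day 12 GFP- cells (log2 fold change 1.94 ± 0.14, adjusted p = 8.4e-09). Pfkfb3 rose by 0.89 ± 0.16, Aldoc by 0.88 ± 0.23, Pfkl by 0.67 ± 0.18 and Slc2a3 by 0.53 ± 0.11. Slc16a3 was at 64.1 ± 15.3 CPM in day 14 GFP- cells and 26.03 ± 8.01 CPM in day 12 GFP- cells (log2 fold change 1.29 ± 0.41, adjusted p = 0.022). That call was lost without replicate 1 or 2 of day 12 GFP- and without replicate 2 or 3 of day 14 GFP- (adjusted p = 0.058 to 0.087). Lower were Pdha1 (-0.62 ± 0.07), Pfkp (-0.54 ± 0.16), Slc16a1 (-0.51 ± 0.08), Dlat (-0.41 ± 0.06) and Pdhb (-0.26 ± 0.08). The call of Pfkp was lost without replicate 1 of day 14 GFP- (adjusted p = 0.067) and that of Pdhb without its replicate 3 (adjusted p = 0.074). Of the 16 hypoxia response genes 11 were higher and none lower in day 14 GFP- cells (median 0.71), and of the 16 tricarboxylic acid cycle genes 1 was higher and 9 lower. Fibroblast markers were higher in 9 of 10 cases here, with sums of 3001 to 4959 CPM in day 14 and 786 to 1262 CPM in day 12 GFP- libraries. All 7 trophectoderm markers tested were higher, with sums of 64.7 to 77.2 CPM in day 14 and 12.6 to 14.3 CPM in day 12 GFP- libraries, and their part in the result was not tested.

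GFP marks cells in which the Pou5f1 transgene has come on, and at day 12 the members it set apart were Hk2 and Pfkp. Day 12 GFP+ cells had 2 members higher than GFP- cells and none lower, where 16.6% of all genes were called (9.93% higher, 6.69% lower). Hk2 was at 278, 276 and 275 CPM in day 12 GFP+ cells, against 204, 221 and 220.2 CPM in GFP- cells (log2 fold change 0.36 ± 0.08, adjusted p = 0.0019). Pfkp was at 327, 357 and 330.2 CPM in day 12 GFP+ cells, against 217, 252 and 209 CPM in GFP- cells (log2 fold change 0.58 ± 0.16, adjusted p = 0.014). Neither gene overlapped between the groups. The call of Pfkp was lost without replicate 1 or 3 of GFP- or replicate 2 of GFP+ (adjusted p = 0.06 to 0.079), which left 1 call. A fit of these 2 groups alone called 7 members. Pluripotency markers were higher in 5 of 10 cases and none lower, with sums of 3446 to 3791 CPM in day 12 GFP+ libraries and 2840.2 to 2996 CPM in GFP- libraries. Trophectoderm markers were lower in 3 of 7 and none higher, with sums of 8.94 to 13.3 CPM in GFP+ libraries and 12.6 to 14.3 CPM in GFP- libraries. No fibroblast marker was called, with sums of 478 to 968 CPM in GFP+ libraries and 786 to 1262 CPM in GFP- libraries. Leukocyte markers summed to 176.6 to 199.4 CPM in GFP+ and 133.3 to 150.5 CPM in GFP- libraries. Muscle markers summed to 28.2 to 38.2 CPM in GFP+ and 17.4 to 22.5 CPM in GFP- libraries. Their part in the result was not tested.

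At day 14 members at several steps differed between cells with and without GFP. Day 14 GFP+ cells had 12 members higher and 4 lower than GFP- cells, against 31.3% of all genes called (14.4% higher, 16.9% lower). The median log2 fold change was 0.22 over the members and -0.02 over all genes. The count was 9 without replicate 1 of GFP- and 10 without replicate 2 of GFP+. Pfkp (chr13:6579768-6648777, minus strand, mm10) was at 438, 460.4 and 427 CPM in day 14 GFP+ cells, against 128, 173 and 165 CPM in GFP- cells (log2 fold change 1.51 ± 0.16, adjusted p = 8.5e-07). Hk2 (chr6:82725025-82774454, minus strand, mm10) was at 404, 454 and 402 CPM in day 14 GFP+ cells, against 216, 250.5 and 253 CPM in GFP- cells (log2 fold change 0.81 ± 0.08, adjusted p = 9.3e-08). For both genes the lowest GFP+ library stood well above the highest GFP- library.

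Other members with higher levels in day 14 GFP+ cells lay along the whole pathway. They were Pfkfb3 (0.64 ± 0.15), Pfkm (0.52 ± 0.10), Aldoa (0.41 ± 0.11), Gpi1 (0.30 ± 0.11), Pkm (0.25 ± 0.08), Ldha (0.55 ± 0.14), the kinases Pdk3 (0.62 ± 0.14) and Pdk1 (0.32 ± 0.10), Pdhb (0.22 ± 0.08) and Mpc1 (0.57 ± 0.16). Lower were Slc2a3, at 1507 ± 78.1 CPM in GFP+ cells and 1933 ± 174 CPM in GFP- cells (log2 fold change -0.36 ± 0.11, adjusted p = 0.02), Pdk4 (-0.40 ± 0.14), Pdha1 (-0.24 ± 0.07) and Eno2, which was under 10 CPM in both groups. Several of these calls were lost with 1 library left out. Gpi1 lost its call without any 1 library of GFP+ or any 1 library of GFP-, Aldoa without replicate 1 of GFP-, Pkm without replicate 1 of GFP- or replicate 2 or 3 of GFP+, Pdk1 without replicate 1 of GFP- or replicate 2 of GFP+ and Pdhb without replicate 1 of GFP+ or replicate 2 or 3 of GFP- (adjusted p up to 0.15, 0.063, 0.17, 0.082 and 0.21 over their alternatives). Mpc1 lost its call without replicate 1 of GFP- (adjusted p = 0.066). Slc2a3 lost it without replicate 1 or 2 of GFP+ or replicate 3 of GFP- (adjusted p = 0.056 to 0.1). Pdha1 lost it without replicate 2 or 3 of GFP+ or replicate 1 of GFP- (adjusted p = 0.056 to 0.081). Pdk4 lost it without any GFP+ library, without replicate 1 or 3 of GFP-, under RLE scaling and in DESeq2 (adjusted p = 0.057 to 0.15).

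The GFP effect itself was larger at day 14 than at day 12 for the same pair of genes. Its difference, day 14 minus day 12, was 0.45 ± 0.11 for Hk2 (adjusted p = 0.036) and 0.93 ± 0.22 for Pfkp (adjusted p = 0.04) on the log2 scale, the 2 members called in a test that called 1.54% of all genes. Both calls are close to the threshold. With lines as a block the adjusted p of Pfkp was 0.053, and leaving out 1 library ended the call of Hk2 in 9 of 12 cases and of Pfkp in 11 of 12. Pluripotency markers were higher in 9 of 10 cases in day 14 GFP+ cells, with sums of 4682 to 4963 CPM in GFP+ and 3441 to 3731 CPM in GFP- libraries. Trophectoderm markers were lower in 6 of 7 cases, with sums of 23.03 to 24.8 CPM in GFP+ libraries and 64.7 to 77.2 CPM in GFP- libraries. Fibroblast markers were lower in 5 of 10, with sums of 1491 to 2491 CPM in GFP+ and 3001 to 4959 CPM in GFP- libraries. Leukocyte markers summed to 132.6 to 146.5 CPM in GFP+ and 59.2 to 61.3 CPM in GFP- libraries. Muscle markers summed to 75.4 to 96.0 CPM in GFP+ and 43.5 to 48.5 CPM in GFP- libraries. Their part in the result was not tested.

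The totalx2 lines were followed from day 8. Day 10 GFP- cells had 7 members higher and 3 lower than day 8 GFP- cells, where 20.7% of all genes were called. Fibroblast markers were lower in 9 of 10 cases, with sums of 2236 to 7224 CPM in day 10 and 11423 to 18448 CPM in day 8 GFP- libraries, and their part in the result was not tested. Slc16a3 was at 25.6, 27.7 and 32.5 CPM in day 10 GFP- cells, against 3.57, 2.26 and 4.096 CPM in day 8 GFP- cells, without overlap (log2 fold change 3.11 ± 0.43, adjusted p = 0.00012). Slc2a1 was at 150.4, 158 and 161 CPM in day 10 GFP- cells, against 75.1, 64.4 and 74.3 CPM in day 8 GFP- cells (log2 fold change 1.13 ± 0.14, adjusted p = 4e-05). Slc2a3, Pfkl, Pdk1 and Pkm rose by 0.81 ± 0.19, 0.69 ± 0.17, 0.73 ± 0.10 and 0.35 ± 0.09, the last not called without replicate 2 of day 8 (adjusted p = 0.052). Pdk2 fell by 1.25 ± 0.21 on the log2 scale and Pfkfb3 by 0.78 ± 0.17. Pdk4 (0.98 ± 0.26) was called, but not without replicate 1 of day 8 or of day 10 (adjusted p = 0.06 and 0.084). Aldoc (-1.13 ± 0.37, adjusted p = 0.038) lost its call without replicate 1 or 2 of day 10 or replicate 2 or 3 of day 8, in a fit of the 2 groups alone and with no low-count filter (adjusted p = 0.094 to 0.22).

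Day 12 cells that were still GFP- had 7 members higher and 4 lower than day 10 GFP- cells, where 28.1% of all genes were called. Pdk4, the kinase known to be induced by fasting, stood out, at 106, 57.97 and 72.1 CPM in day 12 GFP- cells, against 26.9, 15.6 and 20.3 CPM in day 10 GFP- cells (log2 fold change 1.92 ± 0.25, adjusted p = 4.2e-05). Pdk2 (1.72 ± 0.20), Eno2 (0.98 ± 0.21), Eno3 (0.94 ± 0.24), Pfkfb3 (0.59 ± 0.17) and Hk1 (0.35 ± 0.11) were also higher, and Aldoc (1.11 ± 0.37) was at 28.5, 35.4 and 48.1 CPM in day 12 GFP- cells, against 9.58, 15.1 and 26.9 CPM in day 10 GFP- cells. Hk2 (-0.42 ± 0.10), Pdhb (-0.33 ± 0.07), Ldha (-0.43 ± 0.14) and Pkm (-0.31 ± 0.09) were lower. Without replicate 1 of day 10 GFP- 6 calls were left, and 7 without its replicate 2 or without replicate 3 of day 12 GFP-. Lost without the first of these libraries were Aldoc (adjusted p = 0.13), Pfkfb3 (0.087), Ldha (0.079) and Pkm (0.061) among others, and Hk1 was lost without replicate 1 or 2 of day 10 or replicate 3 of day 12 (adjusted p up to 0.1). Eno3 lost its call (adjusted p = 0.051) without replicate 3 of day 12. Aldoc was not called without replicate 2 of day 10 or replicate 2 or 3 of day 12, Pfkfb3 not without replicate 3 of day 12, and neither Ldha nor Pkm without replicate 1 of day 12 (adjusted p = 0.18 and 0.1). Both were also lost without replicate 2 of day 10, and Ldha without replicate 3 of day 10 or replicate 2 of day 12. Fibroblast markers were higher in 5 of 10 cases, with sums of 7464 to 10645 CPM in day 12 and 2236 to 7224 CPM in day 10 GFP- libraries, and their part in the result was not tested. Txnip, whose product restrains glucose uptake, was at 607 ± 196 CPM in day 12 GFP- cells and 159 ± 23.5 CPM in day 10 GFP- cells (log2 fold change 1.94 ± 0.18, adjusted p = 3e-06).

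At day 10 the totalx2 cells with GFP had 7 members higher and 1 lower than those without (22.4% of all genes were called, 13% higher and 9.36% lower). Slc2a3 was at 937, 799 and 1025 CPM in day 10 GFP+ cells, against 547, 428 and 452 CPM in GFP- cells (log2 fold change 0.95 ± 0.19, adjusted p = 0.00087). Pfkp was at 178, 137 and 211 CPM in day 10 GFP+ cells, against 84.4, 74.6 and 90.5 CPM in GFP- cells (log2 fold change 1.08 ± 0.17, adjusted p = 0.00011). Pdhb, Pdk1 and Pdk2 were higher by 0.50 ± 0.07, 0.46 ± 0.10 and 0.61 ± 0.21, but Pdk2 lost its call in 9 of 13 alternatives, among them without any 1 library of GFP+ or replicate 1 or 2 of GFP- (adjusted p up to 0.2). Hk1 was lower, at 86.2 ± 2.89 CPM in GFP+ cells and 122 ± 17.3 CPM in GFP- cells (log2 fold change -0.50 ± 0.11, adjusted p = 0.0018). Pfkm (0.45 ± 0.12) and Ldhb (0.37 ± 0.10) were called, but neither gene was without replicate 1 of GFP+ or replicate 2 of GFP-, each of which left 5 calls. Pfkm was not called without replicate 3 of GFP-, nor Ldhb without replicate 3 of GFP+ (adjusted p = 0.058 to 0.098 for Ldhb and 0.0504 to 0.07 for Pfkm, library totals alone included). Leukocyte markers moved with GFP here, 7 of 8 higher and 1 lower, with sums of 225 to 307 CPM in GFP+ libraries and 229.7 to 302 CPM in GFP- libraries that overlap, and their part in the result was not tested. Pluripotency markers were higher in 10 of 10 cases, with sums of 2426 to 2575 CPM in GFP+ libraries and 662 to 917 CPM in GFP- libraries.

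By day 12 most genes of the table differed between totalx2 cells with and without GFP, the members among them. In GFP+ cells 14 members were higher and 10 lower, where 61.6% of all genes were called (31.2% higher, 30.4% lower). The median log2 fold change was 0.27 over the members and 0.05 over all genes. Slc2a3 was at 1259, 1221 and 1348 CPM in day 12 GFP+ cells, against 412, 356 and 393 CPM in GFP- cells (log2 fold change 1.72 ± 0.19, adjusted p = 3.3e-07). Hk2 was at 268, 315 and 368 CPM in GFP+ cells, against 166, 156 and 148 CPM in GFP- cells (log2 fold change 1.02 ± 0.10, adjusted p = 7.3e-08), while Hk1 was lower (-0.42 ± 0.11). Each of these 3 genes kept the 2 groups apart in all libraries. Pfkp was at 305, 370.2 and 498 CPM in day 12 GFP+ cells, against 80.8, 81.02 and 103 CPM in GFP- cells (log2 fold change 2.15 ± 0.17, adjusted p = 5.4e-09).

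Ldhb (chr6:142490249-142507957, minus strand, mm10), the form of lactate dehydrogenase known to favour the use of lactate, was at 232, 194 and 233 CPM in day 12 GFP+ cells, against 63.6, 63.5 and 62.1 CPM in GFP- cells (log2 fold change 1.80 ± 0.10, adjusted p = 3.4e-11). Ldha was not called, at 501 ± 105 CPM in GFP+ cells and 579 ± 99.3 CPM in GFP- cells. Pdhb (1.01 ± 0.07), Pdk1 (0.67 ± 0.10), Aldoa (0.58 ± 0.11), Pfkl (0.56 ± 0.17), Slc16a1 (0.45 ± 0.09), Pfkm (0.43 ± 0.12), Slc2a1 (0.37 ± 0.13), Pdha1 (0.31 ± 0.08), Dlat (0.27 ± 0.08) and Pkm (0.27 ± 0.09) were higher as well. The weaker of these calls were lost with 1 library left out, Slc2a1 without replicate 1 or 2 of GFP- or replicate 3 of GFP+, Pfkl without replicate 1 of GFP- or replicate 3 of GFP+, Dlat without replicate 1 of GFP+ or replicate 3 of GFP- and Pkm without replicate 1 of GFP- or replicate 2 or 3 of GFP+ (adjusted p up to 0.21, 0.062, 0.085 and 0.17 over their alternatives). Lower with GFP were 10 members, Hk1 among them. The neuronal enolase Eno2 was at 4.87 ± 1.26 CPM in GFP+ cells and 16.7 ± 3.48 CPM in GFP- cells (log2 fold change -1.75 ± 0.22, adjusted p = 1.3e-06). Aldoc was at 12.8 ± 2.86 CPM in GFP+ cells and 37.4 ± 9.95 CPM in GFP- cells (log2 fold change -1.54 ± 0.38, adjusted p = 0.0018), and Pdk4 at 28.5 ± 6.96 CPM in GFP+ cells and 78.8 ± 24.8 CPM in GFP- cells (log2 fold change -1.47 ± 0.24, adjusted p = 3.9e-05). Pfkfb3 (-1.43 ± 0.18), Pdk2 (-0.96 ± 0.20), Eno3 (-0.84 ± 0.25), Pdk3 (-0.78 ± 0.13), Pfkfb4 (-0.64 ± 0.19) and Tpi1 (-0.38 ± 0.13) were lower too, Tpi1 with its call lost without replicate 1 of GFP+ or replicate 2 or 3 of GFP- (adjusted p up to 0.1). Pluripotency markers were higher in 10 of 10 cases, with sums of 3493 to 3666 CPM in GFP+ libraries and 658 to 803 CPM in GFP- libraries. All 10 fibroblast markers were lower in GFP+ cells, with sums of 1879 to 2313 CPM in GFP+ libraries and 7464 to 10645 CPM in GFP- libraries. Leukocyte markers summed to 151 to 216 CPM in GFP+ and 240 to 267 CPM in GFP- libraries. Muscle markers summed to 23.2 to 25.7 CPM in GFP+ and 6.29 to 9.13 CPM in GFP- libraries. Trophectoderm markers summed to 19.4 to 23.4 CPM in GFP+ and 29.9 to 35.8 CPM in GFP- libraries. The part of these markers in the result was not tested.

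**Figure D3:**
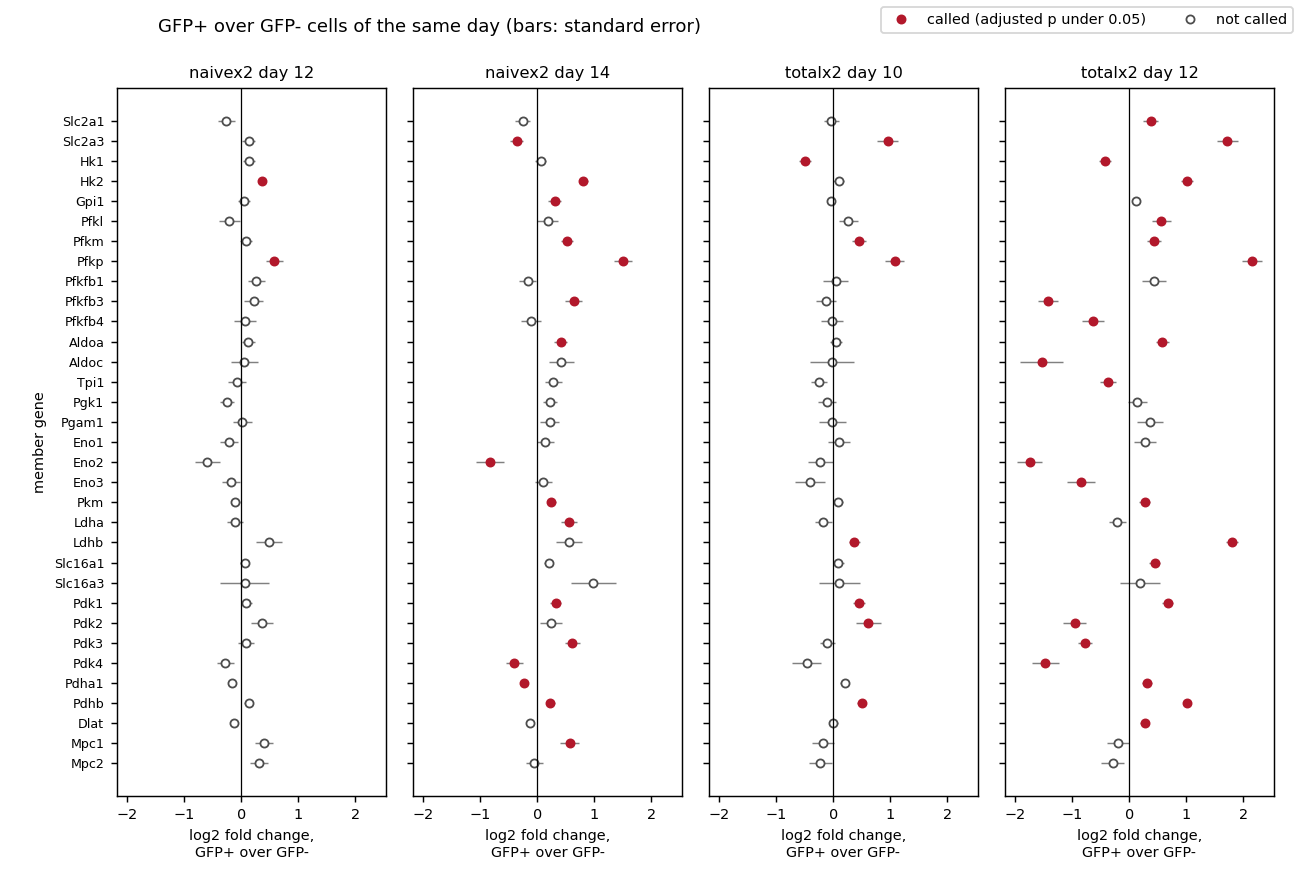
Log2 fold change of GFP+ over GFP- cells for each tested member (points, bars ± standard error, filled where called at an adjusted p under 0.05), with naivex2 days 12 and 14 and totalx2 days 10 and 12 as separate panels. Pfkp lies right of 0 and is called in all 4 panels, and the widest spread is that of totalx2 day 12, with Pfkp at 2.15 and Eno2 at -1.75.

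Among GFP+ cells of the totalx2 lines 6 members were higher and 3 lower at day 12 than at day 10 (25.1% of all genes were called), with 5 calls left without replicate 1 of day 12 GFP+. Ldhb was at 232, 194 and 233 CPM in day 12 GFP+ cells, against 82.8, 70.1 and 88.2 CPM in day 10 GFP+ cells (log2 fold change 1.45 ± 0.10, adjusted p = 1.3e-08). Pfkp rose by 1.16 ± 0.17, Hk2 by 0.50 ± 0.10, Aldoa by 0.45 ± 0.11 and Hk1 by 0.43 ± 0.11. Pdk4 (0.92 ± 0.26) was not called without replicate 1 of day 12 or replicate 2 of day 10 (adjusted p = 0.092 and 0.078). Pfkfb3 (-0.71 ± 0.19) was lower, with an adjusted p of 0.0504 without replicate 1 of day 12, as were Ldha (-0.46 ± 0.14) and Pdk3 (-0.40 ± 0.13). Their calls were lost without replicate 1 of day 12 (adjusted p = 0.14 and 0.12) and without replicate 2 or 3 of day 10, that of Ldha also without replicate 2 and that of Pdk3 without replicate 3 of day 12. Fibroblast markers were lower in 9 of 10 cases, with sums of 1879 to 2313 CPM in day 12 and 3942 to 10634 CPM in day 10 GFP+ libraries. Leukocyte markers were lower in 6 of 8, with sums of 151 to 216 CPM in day 12 and 225 to 307 CPM in day 10 GFP+ libraries, and their part in the result was not tested.

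The GFP effect in totalx2 cells differed between the days in 12 members, 6 with a more positive and 6 with a more negative effect at day 12 (27.3% of all genes were called). More positive were Ldhb, Pfkp, Hk2, Slc2a3, Aldoa and Pdhb, with differences of 1.43 ± 0.14 for Ldhb, 1.07 ± 0.24 for Pfkp and 0.92 ± 0.14 for Hk2 (adjusted p = 1e-05, 0.003 and 0.00027). More negative were Pdk2, Eno2, Aldoc, Pfkfb3, Pdk4 and Pdk3, with -1.57 ± 0.29 for Pdk2, -1.52 ± 0.31 for Eno2 and -1.30 ± 0.26 for Pfkfb3 (adjusted p = 0.00087, 0.0015 and 0.0013). Under RLE scaling the split was 8 against 5. Slc2a3, Aldoc and Pdk4 were close to the threshold (adjusted p = 0.036, 0.045 and 0.043). They lost their calls in 8, 8 and 9 of 12 fits with 1 library left out.

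Established naivex2 iPSC had 6 members higher and 16 lower than day 14 GFP+ cells, where 46.8% of all genes were called (24.3% higher, 22.5% lower). The median log2 fold change was -0.23 over the members and 0.02 over all genes. In upper glycolysis 9 of 10 tested genes were lower and none higher, with Pfkl at 175, 91.6 and 146 CPM in iPSC, against 320.5, 400.0 and 401 CPM in day 14 GFP+ cells (log2 fold change -1.44 ± 0.19, adjusted p = 6.3e-06). Slc16a3 was at 45.7, 11.52 and 51.2 CPM in iPSC, against 118, 142 and 121 CPM in day 14 GFP+ cells (log2 fold change -1.82 ± 0.41, adjusted p = 0.0018). The iPSC line with the lowest Slc16a3 and Pfkl (replicate 2) was also the lowest for Ldhb, at 291, 106 and 187 CPM in the 3 iPSC libraries. Aldoc (-1.51 ± 0.23), Tpi1 (-1.11 ± 0.16), Pfkp (-1.11 ± 0.16), Pdk4 (-0.93 ± 0.15) and Ldha (-0.92 ± 0.14) were lower. Eno3 (1.51 ± 0.15), Pdk3 (0.73 ± 0.13), Pdha1 (0.57 ± 0.07), Slc16a1 (0.57 ± 0.08), Pdk1 (0.39 ± 0.10) and Hk2 (0.37 ± 0.07) were higher. Slc2a1 was not called, at 369.8 ± 95.3 CPM in iPSC and 350.3 ± 37.5 CPM in day 14 GFP+ cells. Fibroblast markers were higher in 6 of 10 cases, with sums of 892 to 2728 CPM in iPSC libraries and 1491 to 2491 CPM in day 14 GFP+ libraries that overlap, and their part in the result was not tested.

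Set against the MEF they came from, naivex2 iPSC had 15 members higher and 8 lower, with 77.3% of all genes called (37.9% higher, 39.4% lower). With library totals alone as the scaling, which moved the median of all genes to 0.31, against 0.02, the split was 19 higher and 5 lower. Slc2a3 was at 1517, 1104 and 1234 CPM in iPSC, against 46.1, 42.5 and 48.7 CPM in MEF (log2 fold change 4.81 ± 0.14, adjusted p = 1.5e-17). Pdk1 was at 262, 189 and 242 CPM in iPSC, against 16.4, 14.2 and 13.4 CPM in MEF (log2 fold change 3.97 ± 0.11, adjusted p = 1.9e-17). Hk2 was at 559, 501 and 569 CPM in iPSC, against 137, 129.7 and 135 CPM in MEF (log2 fold change 2.02 ± 0.08, adjusted p = 2.4e-15). These 3 genes lay above MEF in every iPSC library. Ldhb (2.31 ± 0.24), Pfkp (1.46 ± 0.16) and Slc16a1 (1.38 ± 0.08) were higher, and Aldoc (3.56 ± 0.32) was at 9.06 ± 3.87 CPM in iPSC and 0.737 ± 0.247 CPM in MEF. Ldha was at 359, 287 and 383 CPM in iPSC, against 792, 808 and 801 CPM in MEF (log2 fold change -1.22 ± 0.14, adjusted p = 1.7e-07). Eno2 (-2.13 ± 0.23), Pfkfb4 (-1.89 ± 0.17), Pfkfb3 (-1.45 ± 0.15) and Mpc2 (-1.0 ± 0.15) were lower. Tpi1 (-0.58 ± 0.16, adjusted p = 0.0023) was not called with library totals alone (-0.28, adjusted p = 0.12) or in a fit of the 2 groups alone (adjusted p = 0.064). Hk1 (-0.25 ± 0.10) was at 0.05 with library totals alone, of the opposite sign, and lost its call in 9 of 13 alternatives. Fibroblast markers were lower in 9 of 10 cases and higher in 1, with sums of 892 to 2728 CPM in iPSC libraries and 16859.8 to 18058 CPM in MEF, and their part in the result was not tested.

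Wild-type iPSC of the second table had 6 members higher and 13 lower than totalx2 day 12 GFP+ cells, which are of another strain (51.1% of all genes were called, 25% higher and 26% lower). A fit of these 2 groups alone called 12, and without replicate 1 of the wild-type iPSC 8 were higher and 12 lower. Library totals alone, which moved the median of all genes to -0.15, against -0.01, gave 3 higher and 14 lower. Pfkp was at 115, 104 and 118 CPM in wild-type iPSC, against 305, 370.2 and 498 CPM in day 12 GFP+ cells (log2 fold change -1.80 ± 0.17, adjusted p = 1e-07). Slc16a3 was at 5.603, 10.3 and 13.3 CPM in wild-type iPSC, against 18.8, 36.9 and 48.4 CPM in day 12 GFP+ cells (log2 fold change -1.78 ± 0.38, adjusted p = 0.00071). Pdk4 (-1.47 ± 0.26), Pfkl (-1.34 ± 0.17) and Ldha (-1.06 ± 0.15) were lower too, and Eno3 (1.17 ± 0.24), Mpc1 (0.998 ± 0.19), Pdk3 (0.90 ± 0.13) and Hk2 (0.41 ± 0.10) were higher. The call of Hk2 was lost with library totals alone (adjusted p = 0.055). Those of Slc2a1 (0.33 ± 0.13), Pfkfb3 (0.51 ± 0.19) and Aldoc (-1.10 ± 0.41) were lost, that of Slc2a1 without replicate 1 or 2 of day 12 GFP+ or replicate 2 or 3 of wild type, of Pfkfb3 without replicate 1 or 2 of day 12 GFP+ or replicate 3 of wild type and of Aldoc without replicate 2 or 3 of day 12 GFP+ or any 1 library of wild type (adjusted p up to 0.3, 0.12 and 0.12 over their alternatives). Fibroblast markers were higher in 1 and lower in 3 of 10 cases, with sums of 1062 to 1471 CPM in wild-type iPSC and 1879 to 2313 CPM in day 12 GFP+ libraries.

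Between Tet1 knockout and wild-type iPSC 6 of 33 members were called, 4 higher and 2 lower in knockout clones, where 10.7% of all genes were called (4.78% higher, 5.87% lower). The median log2 fold change was 0.11 over the members and -0.04 over all genes. Both forms of lactate dehydrogenase were higher. Ldha was at 428, 364 and 441 CPM in knockout iPSC, against 201, 270.2 and 249 CPM in wild-type iPSC (log2 fold change 0.77 ± 0.14, adjusted p = 0.0019). Ldhb was at 232, 215 and 232 CPM in knockout iPSC, against 141, 146 and 155 CPM in wild-type iPSC (log2 fold change 0.62 ± 0.10, adjusted p = 0.00035). For both, the lowest knockout clone lay above the highest wild-type clone.

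The lactate exporter Slc16a3 was at 26.6, 20.0008 and 23.01 CPM in knockout iPSC, against 5.603, 10.3 and 13.3 CPM in wild-type iPSC (log2 fold change 1.199 ± 0.38, adjusted p = 0.049). It is the least secure of the 6, with its call lost without replicate 1 or 2 of wild type or any 1 knockout clone, with library totals alone, with no low-count filter and in a fit of the 2 groups alone (adjusted p = 0.052 to 0.19). Pfkfb3 was at 21.1, 19.6 and 22.6 CPM in knockout iPSC, against 10.7, 11.3 and 11.8 CPM in wild-type iPSC (log2 fold change 0.90 ± 0.18, adjusted p = 0.0029). Mpc1, a subunit of the mitochondrial pyruvate carrier, was lower, at 6.82, 8.66 and 8.33 CPM in knockout iPSC, against 17.6, 15.5 and 11.8 CPM in wild-type iPSC (log2 fold change -0.90 ± 0.19, adjusted p = 0.004). In a fit of the 2 groups alone its adjusted p was 0.062, and its partner Mpc2 was not called. Hk1 was at 65.6, 62.03 and 67.6 CPM in knockout iPSC, against 102, 86.3 and 94.5 CPM in wild-type iPSC (log2 fold change -0.53 ± 0.11, adjusted p = 0.0036), while Hk2 was at 432 ± 37.9 CPM in knockout and 422 ± 20.8 CPM in wild-type iPSC and not called.

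Wild-type replicate 1, the clone with 12.1785% of its counts on mitochondrial genes, was low in part of the set. It held Eno1 at 344.7 CPM, against 794 and 722 CPM in the other 2 wild-type clones and 929, 862 and 889 CPM in knockout clones, and Pgam1 at 49.4 CPM, against 149 and 144 CPM in the other wild-type clones. Neither gene was called between genotypes, although all 6 genes of lower glycolysis, none of them called, had a median log2 fold change of 0.43. Without that clone 4 members were higher and 3 lower in the knockout. Fibroblast, leukocyte and pluripotency markers had no member called between the genotypes, 1 of 7 trophectoderm markers was lower, and fibroblast sums were 1301 to 1953 CPM in knockout and 1062 to 1471 CPM in wild-type libraries.

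**Figure D4:**
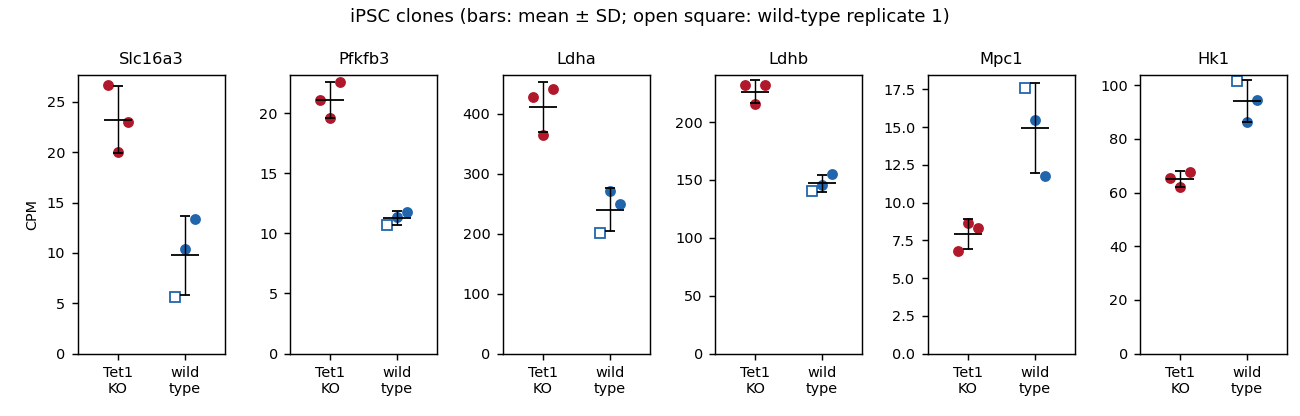
CPM in each Tet1 knockout and wild-type iPSC clone (points, with the mean and SD of 3 clones as bars) for the 6 members called between the genotypes, with wild-type replicate 1 as an open square. Slc16a3, Pfkfb3, Ldha and Ldhb are higher and Mpc1 and Hk1 lower in all 3 knockout clones than in any wild-type clone.

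Exchange of forms within a step was measured as the log2 ratio of 2 forms in the same library, which scaling of the library does not change. For 15 ratios in 8 comparisons (120 tests) an exact two-sided permutation test of 3 against 3 libraries cannot go below p = 0.1. The ratios of the 2 groups did not overlap in 80 of the 120, all of which have this smallest p and 0.15 after Benjamini-Hochberg adjustment, so that no single exchange passes the threshold by this test. The 8 comparisons called from 10.7% to 77.3% of all genes, and how often ratios of other genes do not overlap was not measured. The count of 80 is therefore not read as a result about these steps. The differences are given as sizes. Between day 10 cells and MEF the ratio of Slc2a3 to Slc2a1 was 3.03 ± 0.21 in day 10 cells and -2.18 ± 0.03 in MEF, a difference of 5.20 log2 units. Per kilobase of exon, Slc2a3 held 86.7% ± 1.63 of the transporter pair in day 10 cells and 15.1% ± 0.281 in MEF. The ratio of Pdk3 to Pdk1 differed by -5.00, with Pdk1 at 66.5% ± 2.77 of the 4 kinases in day 10 cells and 10.1% ± 0.919 in MEF, and Pdk3 at 15.8% ± 2.31 in day 10 cells and 77.6% ± 0.704 in MEF. Ldhb over Ldha differed by 1.84 in day 10 cells and by 3.42 in iPSC against MEF, and Ldhb held 46.9% ± 9.79 of the pair in iPSC and 7.55% ± 0.401 in MEF.

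From day 12 to day 14 in GFP+ cells the transporters moved back toward Slc2a1. Slc2a3 over Slc2a1 differed by -1.89, with Slc2a3 at 77.6% ± 1.37 of the pair at day 14 and 92.8% ± 0.507 at day 12. The lactate transporters moved further than any other pair over this step, Slc16a3 over Slc16a1 by 2.59, with Slc16a3 at 42.7% ± 2.24 at day 14 and 10.97% ± 1.12 at day 12. With GFP, Hk2 over Hk1 was higher by 0.23 and 0.75 in naivex2 cells at days 12 and 14, and by 0.59 and 1.42 in totalx2 cells at days 10 and 12. Pfkp over Pfkl was higher by 0.79 and 1.33 in naivex2, and by 0.80 and 1.57 in totalx2. In each of these 8 comparisons all 3 GFP+ libraries lay above all 3 GFP- libraries, beside 80 of all 120 ratio tests without overlap. Pfkm over Pfkl was also higher with GFP without overlap in naivex2 (0.29 and 0.34) and at totalx2 day 10 (0.20). At totalx2 day 12 it differed by -0.13 and overlapped. Pfkp held 50.1% ± 3.48 of phosphofructokinase RNA per kilobase in totalx2 day 12 GFP+ cells and 24.7% ± 1.99 in GFP- cells. Ldhb over Ldha differed between GFP+ and GFP- cells by 2.01 at totalx2 day 12, but by 0.00 at naivex2 day 14, where the libraries overlapped.

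In Tet1 knockout iPSC, Hk2 over Hk1 was higher by 0.56, Mpc2 over Mpc1 by 0.95 and Slc16a3 over Slc16a1 by 1.18, and Pfkm over Pfkl was lower by a difference of -0.49, each without overlap between genotypes. Pfkfb4 over Pfkfb3 (-0.82, with Pfkfb4 under 10 CPM), Eno3 over Eno1 (-0.81) and Pdk4 over Pdk2 (-0.52) were also lower without overlap. Pdk4 was at only 6.96 CPM in knockout iPSC. The difference for Mpc2 over Mpc1 was 0.44 without wild-type replicate 1, whose log2 ratio was -1.44. Slc2a3 over Slc2a1 (0.02), Ldhb over Ldha (-0.16) and Pfkp over Pfkl (-0.09) overlapped between the genotypes.

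**Figure D5:**
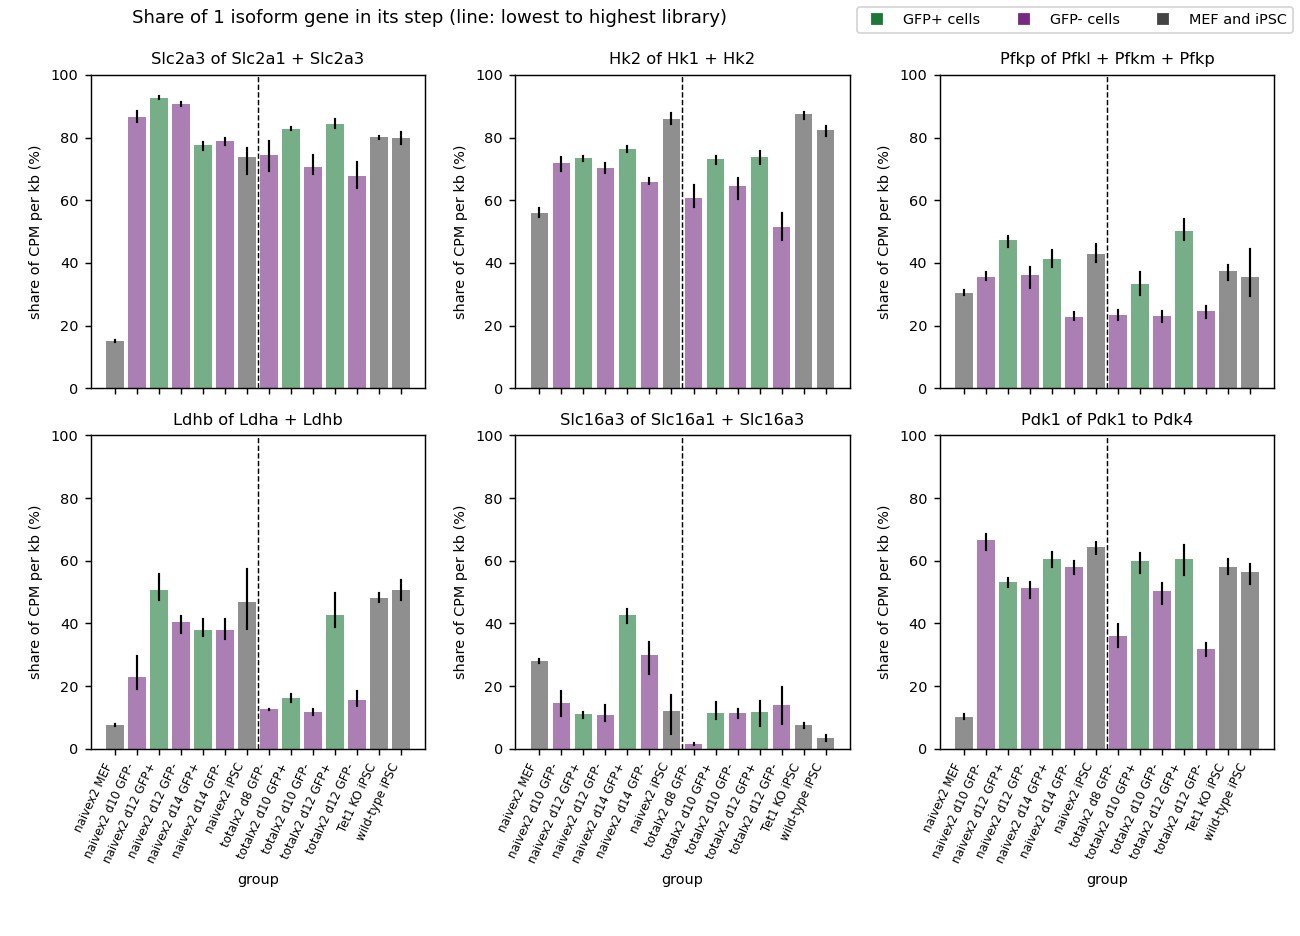
Share (%) of 1 form in the summed CPM per kilobase of exon of its step (bars, mean of 3 libraries; lines, lowest to highest library), with 6 steps as panels, the 14 groups along the axis and a dashed line between the 2 tables. Slc2a3 holds 86.7% ± 1.63 of the transporter pair at day 10 and 15.1% ± 0.281 in MEF, and Ldhb holds 42.6% ± 6.23 of its pair in totalx2 day 12 GFP+ cells and 15.6% ± 2.58 in GFP- cells.

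The other genes of the pathway were followed as a list of 30 names, of which 24 were tested in the first table and 22 in the second. In day 10 cells against MEF, where 76.4% of all genes were called, 8 rose and 10 fell, among them Tigar, which lowers the activator of phosphofructokinase (127 ± 17.1 CPM in day 10 cells and 26.8 ± 2.09 CPM in MEF, log2 fold change 2.25 ± 0.09). Pdhx, a structural subunit of pyruvate dehydrogenase, rose by 0.62 ± 0.08, and Dld, which serves several such complexes, fell by 0.25 ± 0.08. In totalx2 day 12 cells 7 were higher and 7 lower with GFP than without, beside 31.2% of all genes higher and 30.4% lower. Pcx, the enzyme that turns pyruvate into oxaloacetate, was at 40.5 ± 7.202 CPM in GFP+ cells and 165 ± 41.4 CPM in GFP- cells (log2 fold change -2.02 ± 0.27, adjusted p = 3.3e-06). None was higher and 3 lower in knockout iPSC, beside 4.78% of all genes higher and 5.87% lower. The 3 include the pyruvate dehydrogenase phosphatase Pdp2 (-0.81 ± 0.15). Gapdh, the textbook member of the pathway, was counted at 18.4 ± 2.77 CPM in day 10 cells and 18.5 ± 0.984 CPM in MEF. It has 77 genes alike in the annotation, 75 of them in the tables, whose own reads (8884 in the first table) exceeded those of Gapdh (6179), so that nothing further is drawn from it.

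The tricarboxylic acid cycle takes up what enters from pyruvate. In totalx2 day 12 cells 7 of 16 tricarboxylic acid cycle genes were higher and 1 lower with GFP than without, beside 61.6% of all genes called in either direction. Among the higher were Sucla2 (0.78 ± 0.13) and Cs, citrate synthase (0.40 ± 0.09). Of the 16 hypoxia response genes outside glycolysis 2 were higher and 9 lower in the same comparison (median -0.56), with Egln3 (-1.72 ± 0.25) and Egln1 (-0.77 ± 0.11), sensors of oxygen, among the lower. In knockout iPSC 2 of the 16 were higher, beside 10.7% of all genes called, namely Ndrg1 (1.59 ± 0.22) and the mitophagy gene Bnip3 (0.91 ± 0.21), and none lower. Of the 7 pentose phosphate genes, which branch off after hexokinase, 3 were higher and 3 lower in totalx2 day 12 GFP+ than GFP- cells, with Taldo1 and Tkt higher (0.75 ± 0.16 and 0.54 ± 0.09) and G6pdx and Pgd lower (-0.76 ± 0.08 and -0.50 ± 0.09).

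Regulators known to act on these genes were measured beside them. Myc, a transcription factor that raises glycolytic genes, was at 7.902 ± 1.48 CPM in naivex2 day 14 GFP+ cells and 305 ± 50.1 CPM in day 12 GFP+ cells (log2 fold change -5.28 ± 0.26, adjusted p = 3.6e-10), and counts per gene name do not part the cell's own Myc RNA from that of any delivered copy. Mycn, its relative in pluripotent cells, was at 151 ± 3.45 CPM in totalx2 day 12 GFP+ cells and 26.1 ± 4.54 CPM in GFP- cells (log2 fold change 2.52 ± 0.19, adjusted p = 1.8e-09), and at 317 ± 15.3 CPM in knockout and 168 ± 43.8 CPM in wild-type iPSC (log2 fold change 0.91 ± 0.17, adjusted p = 0.0021). Hif1a, the oxygen-regulated factor, was at 183 ± 9.903 CPM in totalx2 day 12 GFP+ cells and 313 ± 47.1 CPM in GFP- cells (log2 fold change -0.77 ± 0.19, adjusted p = 0.0013), and it fell by 0.50 ± 0.15 in naivex2 day 14 against day 12 GFP+ cells. Its transcript level is not a measure of its protein, which oxygen is known to set. Txnip was lower in totalx2 day 12 GFP+ than GFP- cells (-1.10 ± 0.17) and higher in naivex2 day 14 GFP+ than GFP- cells (0.88 ± 0.16).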

How the data were processed

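The deposited tables hold counts per gene, which the authors made with featureCounts 1.5.3, strand setting 2, over whole gene spans grouped by gene name, per the file headers. Alignment with HISAT2 2.1.0 to mm10 and analysis with DESeq2 1.18.1 are named in the submitters' processing notes. Reads in introns and of same-strand neighbours therefore count toward a gene. Libraries came from a stranded poly(A) kit, per the labels' protocols, and the second table is a second sequencing batch.

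The counts as deposited were tested in R 4.3.3 with edgeR 4.0.16 (filterByExpr, TMM with factors of 0.78182 to 1.07, robust quasi-likelihood F test, 1 fit per table over all 21 libraries, 16132 and 15197 genes tested). P-values were adjusted by Benjamini-Hochberg over all genes tested and called under 0.05, and 17 comparisons were made, 2 of them differences of GFP effects. The fit was tested on simulated data first. Isoform ratios are log2 ratios of CPM with a prior count of 2. Shares are CPM per kilobase of union exon length from an annotation (GENCODE vM21) later than the one counted on (vM10). Promoters are RefSeq, matched by symbol. Exact tests used scipy 1.17.1, and alike genes were sought with blastn 2.17.0. Depth limits the precision of members under 10 CPM.

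The members and all gene lists (other glycolysis genes, pentose phosphate, tricarboxylic acid cycle, hypoxia response, regulators, and markers of fibroblasts, leukocytes, trophectoderm, muscle and pluripotency) were chosen with earlier results of these data known. Named first were up to 6 called members with the largest rise and 6 with the largest fall per comparison, from 10 CPM in the higher group, with other called members added, and up to 4 called genes of a list by p; a gene this rule would name is not reported here. Alternatives were RLE scaling, library totals alone, no low-count filter, a filter of 1 CPM in 3 libraries, a fit of the compared groups alone, DESeq2 1.42.0, lines as a block, and leaving out each library.

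Titles name 3 lines per sorted system, so that replicates with the same number come from the same line. Their deviations from the group means were correlated above 0.1 in 30 of 30 pairs in totalx2 (0.13 to 0.59) and in 32 of 63 pairs in naivex2 (-0.12 to 0.36). The iPSC clones of the second table share only a number (0 of 3 pairs above 0.1). Nothing says how separately those clones were grown, so that their p-values measure the spread between these samples, which may be technical. How reprogramming was induced is not given in the sources used here.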

Additional observations from a re-analysis of the deposited data

Results flagged for a closer look

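The effect of GFP (GFP+ over GFP- cells of the same day) differed between days by a test of the difference itself in both systems. In naivex2 cells the effect at day 14 exceeded that at day 12 by 0.45 log2 units for Hk2 and 0.93 for Pfkp. That test called 1.54% of all genes.

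In totalx2 cells, where 27.3% of all genes were called (10.5% more positive, 16.7% more negative), the effect at day 12 was more positive than at day 10 for 6 members. The differences were 1.43 for Ldhb, 1.07 for Pfkp, 0.92 for Hk2, 0.77 for Slc2a3, 0.54 for Aldoa and 0.51 for Pdhb. It was more negative for 6 others, by -1.57 for Pdk2, -1.52 for Eno2, -1.51 for Aldoc, -1.30 for Pfkfb3, -1.0 for Pdk4 and -0.67 for Pdk3. Hk2 and Pfkp were called in both systems, which share no library. Their naivex2 calls were close to the threshold and were lost in most fits with a library left out. The same holds for the totalx2 calls of Slc2a3, Aldoc and Pdk4.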

How the results depend on the processing

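Of 236 called pairs of a member and a comparison, 164 were called in every alternative run, and 1 changed its sign (Hk1 in naivex2 iPSC over MEF). Of 325 pairs not called, 79 were called in some alternative. A fit of the compared groups alone gave 7 calls in place of 2 for naivex2 day 12 GFP+ over GFP- and 12 in place of 19 for wild-type iPSC over totalx2 day 12 GFP+. The 2 calls of the naivex2 difference of GFP effects were 0 with library totals alone, 0 with no low-count filter, 5 in DESeq2 and 6 with the 4 groups alone, and 0 to 1 with 1 library left out.

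With 1 library left out, calls numbered 5 to 8 for naivex2 day 12 GFP- over day 10, 1 to 3 for day 12 GFP+ over GFP-, and 9 to 14 for day 14 GFP+ over GFP-. In totalx2 they numbered 6 to 11 for day 12 over day 10 GFP- cells, 5 to 7 for day 10 GFP+ over GFP-, and 5 to 9 for day 12 over day 10 GFP+ cells. The causes were not tested. The share of all genes called in each alternative fit is not given in this section. These counts, and those with the block below, therefore do not show whether the members changed apart from genes in general.

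With lines as a block in the sorted cells, 10 members were called in place of 8 for naivex2 day 12 GFP- over day 10. In totalx2 the block gave 11 in place of 10 for day 10 over day 8 GFP- cells, 14 in place of 11 for day 12 over day 10 GFP- cells, 9 in place of 8 for day 10 GFP+ over GFP-, 25 in place of 24 for day 12 GFP+ over GFP-, 11 in place of 9 for day 12 over day 10 GFP+ cells, and 14 in place of 12 for the difference of GFP effects. Apart from Pfkp in the naivex2 difference of effects, no called member lost its call with the block. The clones share only a number, and a block by it gave 9 calls in place of 6 for knockout over wild type, and 20 in place of 19 for wild-type iPSC over totalx2 day 12 GFP+. Members under 10 CPM (Pfkfb1, Pfkfb2 and Pdk2 or Pfkfb4) are limited by depth.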
